A study of Homo sapiens with 12 samples.

Results

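Bikunin, the inter-alpha inhibitor heavy chains and the fetuins are liver-secreted plasma proteins, and their transcripts were examined here together with histidine-rich glycoprotein, vitronectin and retinol-binding protein in human liver cancer cells given an siRNA. The members were 10 genes, AMBP, ITIH1, ITIH2, ITIH3, ITIH4, AHSG, FETUB, HRG, VTN and RBP4. A gene was taken as measured where a transcript cluster row of the array carried its symbol alone. This held for 9 of the 10 genes, out of 22465 named genes among 66212 tested rows. The row of VTN, the cell adhesion protein vitronectin, also carries the symbol SEBOX, so VTN is not analysed here. ITIH4 has a second row shared with other genes, which was left out, and HRG has 2 rows of its own, of which the brighter was kept.

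RNA was measured on 12 arrays, 3 for each of 4 groups. The groups were Hep3B cells given the siRNA, Hep3B cells given a negative control RNA, Huh7 cells given the siRNA and Huh7 cells given the negative control RNA. Hep3B and Huh7 are established human hepatocellular carcinoma lines, grown in serum-containing medium and collected 48 h after transfection. The series concerns a long non-coding RNA, whose own level is not analysed here because no row carries its name, so the effect of the siRNA on its target was not checked. The labels name neither the siRNA sequence nor a clone, and nothing in them tells separate cultures from repeat measurements of 1 culture. The spread behind each p-value may therefore be technical. These are bulk cultures, so fewer expressing cells and less RNA per cell cannot be told apart.

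AMBP encodes a single precursor that is cut into alpha-1-microglobulin, a heme-binding lipocalin, and bikunin, a Kunitz-type protease inhibitor. In the liver, bikunin carries a chondroitin sulfate chain to which the heavy chains made by ITIH1, ITIH2 and ITIH3 are bound covalently, giving inter-alpha inhibitor and its relatives, and in tissues these heavy chains can be passed on to hyaluronan. ITIH4 is a related plasma protein that is not joined to bikunin. AHSG (fetuin-A, an inhibitor of calcification), FETUB (fetuin-B, an inhibitor of the egg-coat protease ovastacin) and HRG (a histidine-rich protein that binds heparin and plasminogen) belong to the cystatin superfamily, and RBP4 carries retinol from the liver in complex with transthyretin.

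Promoters of 3 members whose transcripts fell in Hep3B are shown because they let the AMBP, AHSG and RBP4 results be set beside liver factor motifs. Of the 3, only AMBP also had a limma adjusted p under 0.05 in Huh7. The RefSeq table (GRCh38.p14) gives 300 bases per gene start, 250 before and 50 after it, for 9 of the 10 genes, VTN included and ITIH2 not. Those shown are chr9:114078251-114078550 on the minus strand for AMBP, chr3:186612810-186613109 on the plus strand for AHSG and chr10:93601186-93601485 on the minus strand for RBP4. The last is 1 of 3 annotated starts, and it was picked because it matched the largest number of different motifs. Each is written 5′ to 3′ along its gene, and capitals mark matches on either strand to 5 motifs, those of FOXA, C/EBP, HNF1 and HNF4 and the TATA box, whose letters follow the sequences.
AMBP: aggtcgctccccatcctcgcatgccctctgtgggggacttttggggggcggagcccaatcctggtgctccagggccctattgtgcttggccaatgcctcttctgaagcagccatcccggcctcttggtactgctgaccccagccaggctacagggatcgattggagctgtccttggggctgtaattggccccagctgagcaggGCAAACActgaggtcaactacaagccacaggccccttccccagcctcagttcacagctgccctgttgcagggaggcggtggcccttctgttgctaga
AHSG: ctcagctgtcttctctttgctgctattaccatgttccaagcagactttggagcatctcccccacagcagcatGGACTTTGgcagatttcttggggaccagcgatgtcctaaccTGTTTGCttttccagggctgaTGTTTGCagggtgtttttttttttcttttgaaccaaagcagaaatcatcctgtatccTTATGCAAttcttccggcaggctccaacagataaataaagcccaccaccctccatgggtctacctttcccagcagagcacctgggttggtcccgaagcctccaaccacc
RBP4: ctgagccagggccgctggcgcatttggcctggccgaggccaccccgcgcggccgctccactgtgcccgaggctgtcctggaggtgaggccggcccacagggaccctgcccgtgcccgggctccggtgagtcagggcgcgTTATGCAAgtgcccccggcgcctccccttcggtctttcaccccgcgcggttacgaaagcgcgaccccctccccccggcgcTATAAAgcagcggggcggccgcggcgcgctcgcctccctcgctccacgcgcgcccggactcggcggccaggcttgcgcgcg

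The FOXA core was searched as TGTTTNC, and AMBP holds 1, on the opposite strand and starting 47 bases before the gene start. AHSG holds 2 FOXA cores, 1 C/EBP match and 1 HNF4 match, and the RBP4 start shown holds 1 C/EBP match and a TATA box 31 bases before the start. The other annotated RBP4 starts matched the TATA box letters but not the C/EBP letters. Among all 9 genes with a promoter, 6 held the FOXA core at 1 or more starts (ITIH3, ITIH4, AHSG, FETUB, AMBP and VTN), against 18% of the 35116 promoters of the table. The C/EBP letters, TTGCNNAA, were found in 4 genes (AHSG, FETUB, RBP4 and VTN), against 10.5% of promoters. TATAAA was found in 3 genes (FETUB, HRG and RBP4), against 11.5%, and the HNF4 letters, CAAAGTCC, in AHSG alone, against 1.2%. The promoters of these genes did not hold the HNF1 letters, GTTAAT, which 6.88% of promoters hold. FETUB, ITIH1 and RBP4 have several annotated starts and so more letters that could match. The motifs overlap nowhere in the promoters shown, and a match is a description of letters, not a binding site.

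Values are log2 signals after quantile normalization, and a level is compared only within a row, since rows of different genes have different probes. Array medians before this step ran from 3.86 to 3.98, and the highest of 23 background rows averaged 5.50, which is taken as the upper edge of background. "Called" means an adjusted p under 0.05 from limma, with Benjamini-Hochberg adjustment over all 66212 rows. The error written after a change is its SE, with 3 arrays in each group. Across rows, replicate arrays had r between 0.991 and 0.994. A description field of Huh7 control array 1 says Hep3B, whereas its title and cell line say Huh7. Its r was 0.985 to 0.993 against Huh7 arrays and 0.954 to 0.960 against Hep3B arrays. Without it, AMBP fell by 1.04 and ITIH2 by 1.13 on the log2 scale in Huh7.

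With the siRNA, AMBP fell in both lines and ITIH2 fell clearly in Huh7. In Hep3B ITIH2, AHSG and RBP4 fell by amounts near the limit of the test (limma adjusted p = 0.0405, 0.041 and 0.0168). HRG was not called in either line on its brighter row. ITIH1, ITIH3, ITIH4 and FETUB lay within background in every group. Thus 5 of the 9 measured members had a group mean above background. Called lower were 4 of the 9 in Hep3B, where 4.66% of all rows and 17.5% of named rows above background were called lower and 5.63% of all rows higher. With any 1 Hep3B array left out, 1 or 2 members were called there, AMBP in every case. In Huh7 2 of the 9 were called lower, where 3.49% of all rows and 16.4% of named rows above background were called lower and 4.56% of all rows higher. No member was called higher in either line. The median change of the 9 members was -0.17 in Hep3B and -0.15 in Huh7, where the medians over all rows were -0.01 and -0.01.

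**Figure D1:**
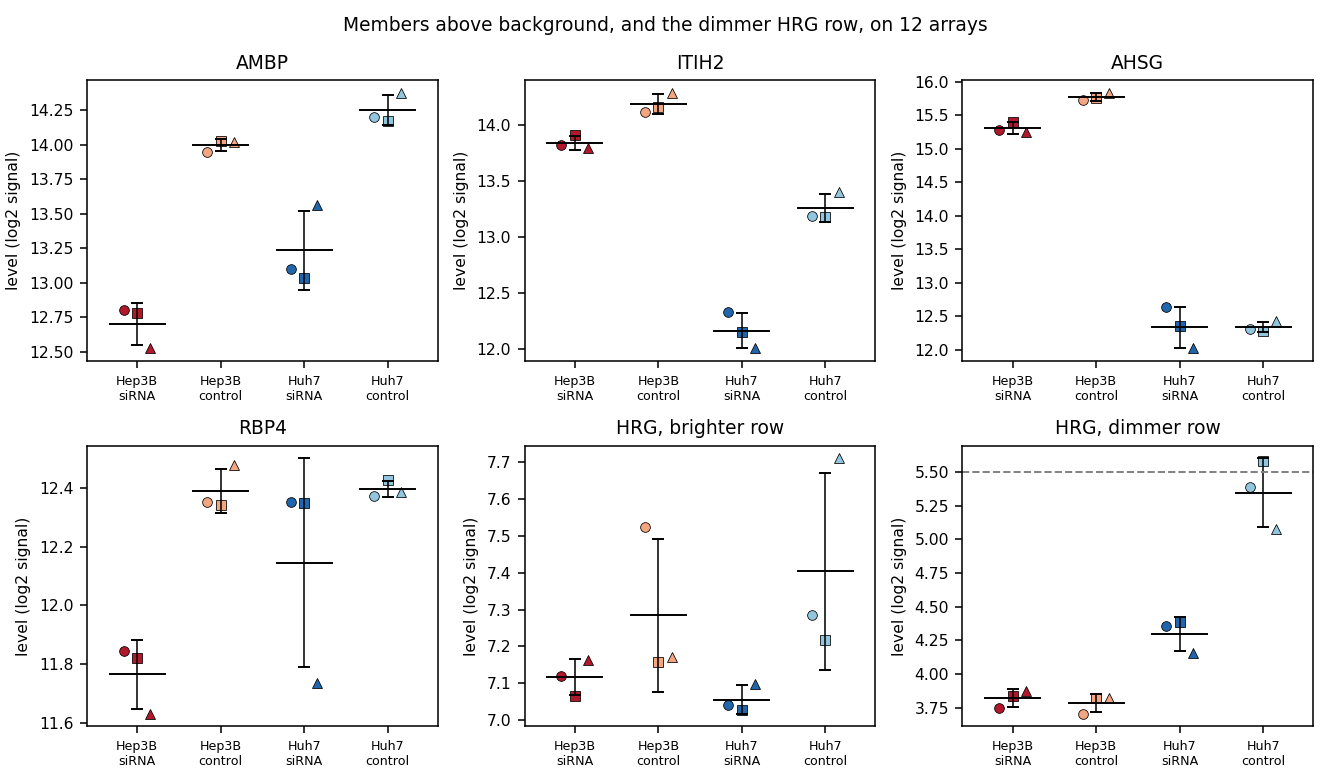
Level (log2 signal, vertical axis of each panel with its own scale) of the 5 members above background and of the dimmer HRG row in each group. Points are single arrays (circle, square and triangle for arrays 1, 2 and 3), the bar is the group mean and the whisker 1 SD (n = 3), and the dashed line in the dimmer HRG panel marks the highest background row at 5.50. AMBP is lower with siRNA on all arrays of both lines, and AHSG separates the lines.

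AMBP, the gene of bikunin and alpha-1-microglobulin, fell in each line with the siRNA. In Hep3B its level was 12.80, 12.78 and 12.52 on the siRNA arrays, against 13.95, 14.02 and 14.02 on the control arrays. All siRNA arrays lay below all control arrays, and AMBP fell by 1.29 ± 0.13 on the log2 scale (limma adjusted p = 9.00e-05), to 40.8% of control. In Huh7 the level was 13.10, 13.03 and 13.56 on the siRNA arrays, against 14.20, 14.17 and 14.37 on the control arrays. Again the groups did not overlap, and siRNA array 3 stood above the other two. The fall was 1.02 ± 0.13 on the log2 scale (limma adjusted p = 0.000676), to 49.5% of control, and 1.18 without that array. The Huh7 and Hep3B changes differed by 0.28 (95% interval -0.13 to 0.69, limma adjusted p = 0.622), so a difference between the lines was not detected, and without Huh7 siRNA array 3 the value was 0.11. Huh7 control arrays averaged 14.25 ± 0.11 and Hep3B control arrays 14.00 ± 0.04 (SD, n = 3 each), a difference of 0.25 that was not called (limma adjusted p = 0.242). With only those 6 arrays in the fit it was called (adjusted p = 0.0448).

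ITIH2, the heavy chain of inter-alpha inhibitor whose row was above background, responded to a different degree in the lines. In Huh7 its level was 12.33, 12.16 and 12.01 with siRNA, against 13.19, 13.18 and 13.40 in controls. Each siRNA array was lower than each control array, and ITIH2 fell by 1.09 ± 0.09 on the log2 scale (limma adjusted p = 5.015e-05), to 47.0% of control. In Hep3B the level was 13.82, 13.91 and 13.79 with siRNA, against 14.11, 14.16 and 14.28 in controls. These groups did not overlap either, but the fall was 0.34 ± 0.09 (limma adjusted p = 0.0405), to 78.8% of control. This Hep3B call was kept under 8 of 16 alternatives and lost when any 1 of the 6 Hep3B arrays was left out (changes from -0.38 to -0.29). The Huh7 change minus the Hep3B change was -0.75 ± 0.13 (limma adjusted p = 0.0185), in a comparison where 0.927% of all rows were called lower. That call was lost without Hep3B control array 1 (adjusted p = 0.0569), Hep3B control array 2 (adjusted p = 0.0589) or Hep3B siRNA array 2 (adjusted p = 0.0535), with differences of -0.71, -0.73 and -0.71. It was also lost after median centring (-0.69, limma adjusted p = 0.0616) and with the replicate number as a block (-0.75, limma adjusted p = 0.0514).

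ITIH2 also differed between the control arrays of the lines. It averaged 13.26 ± 0.13 in Huh7 controls and 14.18 ± 0.09 in Hep3B controls (SD, n = 3 each), so Huh7 was lower by 0.93 on the log2 scale, or 1.90-fold (log2 difference -0.93 ± 0.09, limma adjusted p = 1.867e-05). In order of level ITIH2 ran from Hep3B control (14.18) through Hep3B siRNA (13.84) and Huh7 control (13.26) to Huh7 siRNA (12.17), with no overlap between neighbours. For AMBP the order was Huh7 control (14.25), Hep3B control (14.00), Huh7 siRNA (13.23) and Hep3B siRNA (12.70), where the neighbours at the top were not called different.

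The change of AMBP relative to ITIH2, the precursor of bikunin against its heavy chain partner, was read within each array. In Hep3B the AMBP minus ITIH2 difference on siRNA arrays lay at -0.83, -0.94 and -1.08 relative to the control mean. The Hep3B control arrays lay between -0.08 and 0.05, so AMBP lost 0.95 more than ITIH2. In Huh7 the siRNA arrays lay at -0.22, -0.12 and 0.56 and the control arrays between -0.02 and 0.02, a mean shift of 0.07. The positive mean rests on siRNA array 3, and the other two siRNA arrays were below all controls. The exact permutation test used for these shifts cannot give a p below 0.1 with 3 arrays against 3, so the values are given as a description.

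**Figure D2:**
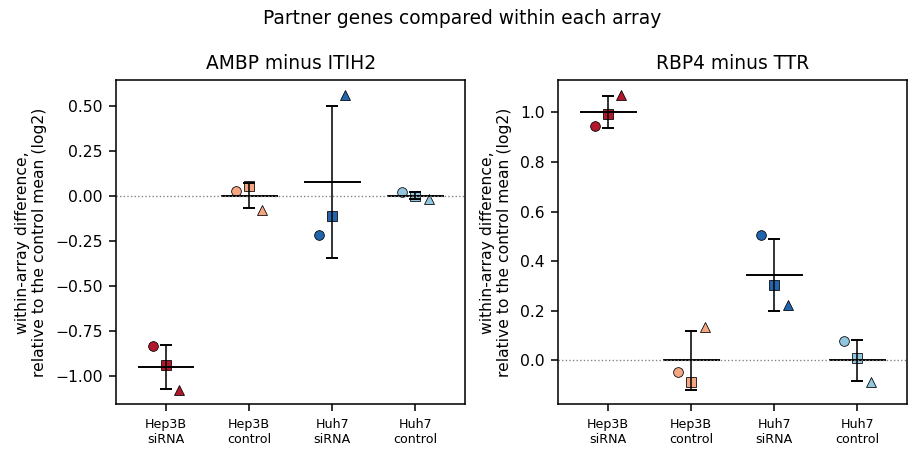
Within-array difference of partner genes (log2, vertical axis) relative to the control mean of the same line, for AMBP minus ITIH2 and for RBP4 minus TTR. Points are arrays 1, 2 and 3 (circle, square, triangle) with the group mean and 1 SD (n = 3). In Hep3B AMBP fell more than ITIH2 (mean -0.95) and RBP4 less than TTR (mean 1.0).

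The other heavy chain genes gave no signal above background. ITIH1 ranged from 3.75 to 4.11 over the 12 arrays, ITIH3 from 3.52 to 3.71 and ITIH4 from 3.86 to 4.0. All of these values lie below the background edge of 5.50, and no fold is given for them. None of the 3 was called in any of the 4 comparisons (limma adjusted p from 0.196 to 0.954), which at this signal does not show that they were absent or unchanged. ITIH1, ITIH3 and ITIH4 follow each other as coding genes on chromosome 3 in RefSeq, whereas ITIH2 lies on chromosome 10 beside ITIH5. An antisense gene overlaps ITIH4 in RefSeq, and whether the array values are strand-specific is not stated.

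**Figure D3:**
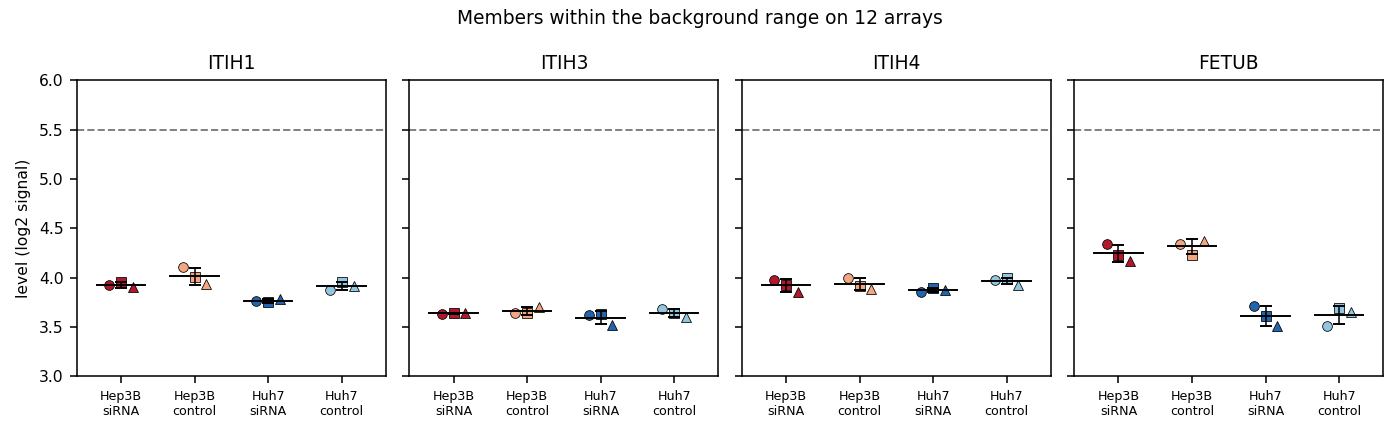
Level (log2 signal) of the 4 members within background, ITIH1, ITIH3, ITIH4 and FETUB, on each array, with group mean and 1 SD (n = 3). The dashed line is the highest background row at 5.50, and every point lies below it.

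AHSG, the fetuin-A gene, showed the widest gap between the lines of the 5 members above background. It averaged 12.34 ± 0.08 in Huh7 controls and 15.77 ± 0.06 in Hep3B controls (SD, n = 3 each). Huh7 was thus lower by 3.43 ± 0.13 on the log2 scale, or 10.8-fold (limma adjusted p = 5.851e-09). In Hep3B the AHSG level was 15.28, 15.41 and 15.24 with siRNA, against 15.72, 15.76 and 15.83 in controls. The groups did not overlap, and AHSG fell by 0.46 ± 0.13 (limma adjusted p = 0.041), to 72.7% of control. That call held under 6 of 16 alternatives (adjusted p from 0.00418 to 0.13) and was lost when any 1 of the 6 Hep3B arrays was left out (changes from -0.51 to -0.43). In Huh7 AHSG had a level of 12.63, 12.35 and 12.02 with siRNA, against 12.31, 12.28 and 12.43 in controls. Here the siRNA arrays lay on both sides of the controls, and no change was called, with a 95% interval from -0.28 to 0.27 (limma adjusted p = 0.994). The Huh7 change minus the Hep3B change was 0.46 and was not called (limma adjusted p = 0.302), but it was 0.61 (adjusted p = 0.0365) without Huh7 siRNA array 3. In order of AHSG level, Hep3B control (15.77) stood above Hep3B siRNA (15.31), and both stood above Huh7 control and Huh7 siRNA, which overlapped.

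FETUB, HRG and KNG1 are the next coding genes after AHSG on chromosome 3 in RefSeq, and all 4 belong to the cystatin superfamily. FETUB lay within background in all groups, at 3.61 ± 0.10 with siRNA and 3.62 ± 0.09 in controls of Huh7, and at 4.25 ± 0.09 with siRNA and 4.32 ± 0.07 in controls of Hep3B (SD, n = 3 each). Its siRNA changes were not called (limma adjusted p = 0.728 in Hep3B and 0.981 in Huh7). Huh7 controls were called lower than Hep3B controls (limma adjusted p = 4.534e-05), and no fold is given because both levels are background. KNG1, the kininogen gene, fell by 1.77 ± 0.16 in Hep3B and by 1.75 ± 0.16 in Huh7, with siRNA means of 11.46 and 10.53 against control means of 13.23 and 12.28 (limma adjusted p = 4.16e-05 and 6.99e-05). Of the neighbouring genes, then, KNG1 was called lower in both lines, AHSG in Hep3B, and FETUB and the kept HRG row in neither.

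HRG has 2 rows, and they disagreed. On the brighter row HRG had 7.12, 7.07 and 7.16 with siRNA in Hep3B, against 7.53, 7.16 and 7.17 in Hep3B controls. In Huh7 that row had 7.04, 7.03 and 7.10 with siRNA, against 7.28, 7.22 and 7.71 in controls. A single control array of each line stood above the rest, array 1 in Hep3B and array 3 in Huh7. The groups overlapped in Hep3B, where HRG changed by -0.17 (95% interval -0.46 to 0.12, limma adjusted p = 0.569), or by -0.048 without Hep3B control array 1. They did not overlap in Huh7, where the change was -0.35 (95% interval -0.64 to -0.06, limma adjusted p = 0.165), or -0.20 without Huh7 control array 3. Controls of Huh7 and Hep3B differed by 0.12 on this row (95% interval -0.17 to 0.41, limma adjusted p = 0.6435).

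The dimmer HRG row set the lines apart, although every group mean was within background. It read 4.36, 4.38 and 4.15 with siRNA in Huh7, against 5.38, 5.58 and 5.07 in Huh7 controls, and only control array 2 passed 5.50. In Hep3B it read 3.75, 3.84 and 3.88 with siRNA, against 3.71, 3.82 and 3.82 in controls. With every probe as a row of its own, this row was called lower with siRNA in Huh7 (limma adjusted p = 0.000259), not in Hep3B (limma adjusted p = 0.917), and the difference of the 2 effects was called (limma adjusted p = 0.0084). It was also higher in Huh7 controls than in Hep3B controls (limma adjusted p = 1.375e-06). With the mean of both rows in place of the brighter one, HRG was called in Huh7 (change -0.70, adjusted p = 6.778e-05), between controls (difference 0.84, adjusted p = 1.561e-06) and for the difference of the siRNA effects (-0.63, adjusted p = 0.00621). The call for HRG thus depends on the row. In RefSeq an antisense gene, HRG-AS1, overlaps FETUB and ends before HRG begins.

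RBP4, the plasma retinol carrier, fell in Hep3B. Its level there was 11.85, 11.82 and 11.63 with siRNA, against 12.35, 12.34 and 12.48 in controls. No siRNA array reached a control array, and RBP4 fell by 0.62 ± 0.14 on the log2 scale (limma adjusted p = 0.0168), to 65.0% of control. The call held under 13 of 16 alternatives and was lost without Hep3B control array 3 (change -0.58, adjusted p = 0.0667), without Hep3B siRNA array 3 (-0.55, adjusted p = 0.0713) and after median centring (-0.50, adjusted p = 0.0653). In Huh7 the level was 12.35, 12.35 and 11.74 with siRNA, against 12.37, 12.43 and 12.39 in controls. The fall of the siRNA mean came mostly from array 3, and the change of -0.25 was not called (95% interval -0.57 to 0.07, limma adjusted p = 0.398) and was -0.05 without that array. The Huh7 change minus the Hep3B change was 0.37 (limma adjusted p = 0.513), and 0.58 (adjusted p = 0.0249) without Huh7 siRNA array 3. Controls were level, at 12.40 ± 0.03 in Huh7 and 12.39 ± 0.07 in Hep3B (SD, n = 3 each; 95% interval of the difference -0.31 to 0.32).

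TTR, the transthyretin that binds RBP4 in plasma, fell more than RBP4 on these arrays. TTR fell by 1.62 ± 0.13 in Hep3B and by 0.59 ± 0.13 in Huh7 (limma adjusted p = 2.04e-05 and 0.0165), the Huh7 call being lost without Huh7 control array 2 (adjusted p = 0.0529) or array 3 (adjusted p = 0.0624) and with only the Huh7 arrays in the fit (adjusted p = 0.0871). Within arrays, the RBP4 minus TTR difference on siRNA arrays was 0.94, 0.99 and 1.07 above the control mean in Hep3B, where controls ran from -0.09 to 0.13. In Huh7 it was 0.50, 0.30 and 0.22 above the control mean, where controls ran from -0.09 to 0.08. The siRNA arrays lay above the controls in both lines, and the exact permutation p of 0.1 is the smallest that 3 against 3 allows.

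**Figure D4:**
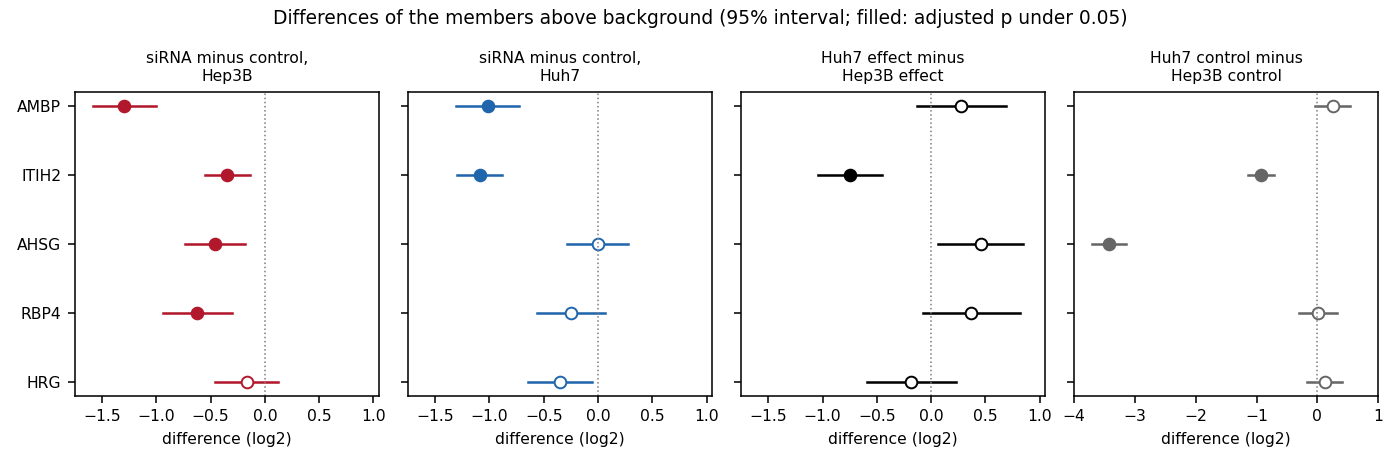
Differences on the log2 scale (horizontal axis; the right panel has a wider scale) for the 5 members above background, with 95% intervals. Filled points had an adjusted p under 0.05 in limma. AMBP is filled in both siRNA panels, ITIH2 is the member filled in the comparison of the lines' effects, and AHSG lies at -3.43 between the controls.

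Huh7 siRNA array 3 stood apart from arrays 1 and 2 of its group in AMBP (13.56 against 13.10 and 13.03) and RBP4 (11.74 against 12.35 and 12.35). It also had the lowest ITIH2 (12.01) and AHSG (12.02) of the group. There the arrays were about evenly spaced, with 12.33 and 12.16 for ITIH2 and 12.63 and 12.35 for AHSG on arrays 1 and 2. Without array 3, AMBP fell by 1.18 and ITIH2 by 1.01 in Huh7, both still called (adjusted p = 9.041e-05 and 0.00016), and the AHSG change there was 0.15 and not called.

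Between controls, 3 of the 9 members were called and all were lower in Huh7, namely AHSG, ITIH2 and FETUB, the last within background. In that comparison 9.9% of all rows and 29.5% of named rows above background were called lower, and 11% of all rows higher. For the difference of the siRNA effects, 1 of the 9 was called, ITIH2, in the lower direction, where 0.927% of all rows and 3.66% of named rows above background were called lower and 0.945% of all rows higher.

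The named genes most like each member were found by the root mean square difference over the 12 arrays, after each gene was centred on its own mean, among 8761 named genes above background. For AMBP these were IDH2 (0.12 log2 units), PDIA4 (0.14) and HGSNAT (0.15), where AMBP itself varied by 0.63 about its mean. IDH2, a mitochondrial isocitrate dehydrogenase, changed by -1.17 in Hep3B and -0.83 in Huh7, and PDIA4, an endoplasmic reticulum disulfide isomerase, by -1.23 and -0.91. ITIH2 lay closest to A2M (0.15), the plasma protease inhibitor alpha-2-macroglobulin, ALB (0.17) and ACAT2 (0.17), and varied by 0.77. Among these ALB, serum albumin, changed by -0.42 in Hep3B and -1.10 in Huh7, and A2M by -0.37 and -0.94. AHSG lay closest to CTNND2 (0.17), BRWD3 (0.17) and PRPS2 (0.19), which were lower in Huh7 controls by 3.64, 3.56 and 3.17 on the log2 scale (differences of -3.64, -3.56 and -3.17). RBP4 lay closest to ELK3 (0.10), CCNI (0.12) and AGMO (0.12), and the brighter HRG row to TRBJ2-2P (0.08), CX3CL1 (0.10) and SNRNP200 (0.10). About their own means AHSG varied by 1.62, RBP4 by 0.30 and the brighter HRG row by 0.20. The distances for RBP4 and HRG are therefore not small beside the variation of those genes. This likeness was computed over 12 arrays in only 4 groups and describes these arrays.

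Genes that make or bind hyaluronan, the acceptor of the heavy chains, went both ways. Of 15 measured, 2 rose and 2 fell in Hep3B, and 4 rose and 2 fell in Huh7, with medians of 0.00 and 0.05. Among all rows, 4.66% were called lower and 5.63% higher in Hep3B, and 3.49% lower and 4.56% higher in Huh7. Among named rows above background, 17.5% were called lower in Hep3B and 16.4% in Huh7. These are the shares to set beside the counts of this and the following lists. The share called higher among named rows above background is not given here. Counts of rises can thus be set only beside the share of all rows, of which 16834 of 66212 had a group mean above background. HAS2, a hyaluronan synthase, rose by 0.48 ± 0.12 in Hep3B and 1.18 ± 0.12 in Huh7 (limma adjusted p = 0.0246 and 0.000139). Its Hep3B control mean of 5.38 was within background, so the size of the Hep3B rise is uncertain. UGDH, which makes the UDP-glucuronate used for hyaluronan and chondroitin, rose by 0.61 in Hep3B and 0.57 in Huh7. HABP2, a secreted hyaluronan-binding protease, fell by 2.03 in Hep3B and 1.0 in Huh7, and HMMR, a hyaluronan receptor that also acts at the mitotic spindle, by 0.35 and 1.13. The Hep3B calls for HAS2 and HMMR held under 12 and 7 of 16 alternatives, and the Huh7 call for HABP2 under 15 (adjusted p = 0.0512 with only the Huh7 arrays in the fit).

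Of 19 measured genes of chondroitin sulfate assembly, the chain that joins bikunin to the heavy chains, 2 rose and 1 fell in Hep3B, and 1 rose and 1 fell in Huh7. PAPSS1, an enzyme of the sulfate donor PAPS, fell by 0.68 in Hep3B and 0.58 in Huh7. Its paralog PAPSS2 and the linkage-region enzyme B3GALT6 rose in Hep3B by 0.58 and 0.86, from control means within background (5.46 and 5.40). CSGALNACT1 was called in Huh7 with both levels within background, a call kept under 6 of 15 alternatives and lost when any 1 of the 6 Huh7 arrays was left out. Among 9 measured genes in the list of other heavy chains and Kunitz inhibitors, 3 fell in Hep3B and 1 in Huh7, and none rose. That list also holds WFDC2, which belongs to neither family and was not called. APLP2, an amyloid precursor-like protein with a Kunitz domain, fell by 0.76 in Hep3B and 1.01 in Huh7, and APP and the coagulation inhibitor TFPI fell in Hep3B by 0.49 and 0.57, the TFPI call holding under 7 of 16 alternatives.

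Of 9 other cystatin superfamily genes measured, 1 fell in Hep3B and 2 in Huh7, namely KNG1 in both and CSTB, a cytosolic protease inhibitor, in Huh7 (-0.34). In the retinol transport and storage list of 18 measured genes, 1 rose and 1 fell in Hep3B, and 1 rose and 3 fell in Huh7. TTR fell in both, RDH11, a retinal reductase, fell in Huh7 by 0.56, and ALDH1A1, which makes retinoic acid, fell in Huh7 by 1.27 ± 0.07 (limma adjusted p = 3.761e-06). The ALDH1A1 change in Hep3B was 0.01 (adjusted p = 0.959). RARA was called higher in both lines within background, and its Hep3B call, kept under 11 of 15 alternatives, was lost without Hep3B control array 1, siRNA array 2 or siRNA array 3. Vitronectin partners had 1 gene higher and 1 lower of 13 in each line. ITGAV, the alpha chain of vitronectin receptors, rose by 0.79 in Hep3B and 1.5 in Huh7, and C5, whose product's terminal complex vitronectin inhibits, fell by 1.89 and 1.36.

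**Figure D5:**
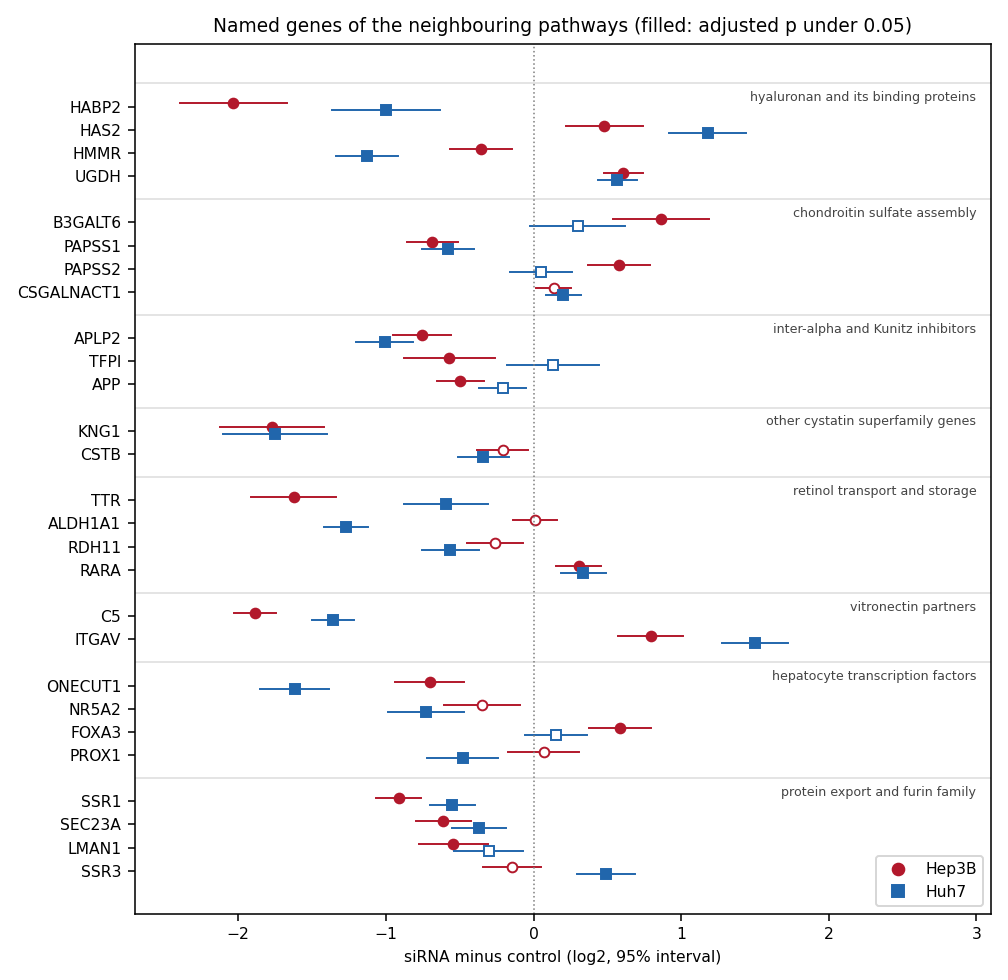
Change with siRNA (log2, horizontal axis, with 95% intervals) in Hep3B (circles) and Huh7 (squares) for the named genes of the related lists. Filled points had an adjusted p under 0.05 in limma. KNG1, C5, HABP2 and TTR lie left of 0 in both lines and ITGAV, HAS2 and UGDH right of it.

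Hepatocyte transcription factors gave 3 higher and 1 lower of 12 measured in Hep3B, and none higher and 4 lower in Huh7, with medians of 0.12 and -0.19. ONECUT1 fell by 0.70 ± 0.11 in Hep3B and by 1.62 ± 0.11 in Huh7 (limma adjusted p = 0.00137 and 1.07e-05). NR5A2 and PROX1 fell in Huh7 by 0.73 and 0.48, and FOXA3 was called higher in Hep3B with both levels within background. The calls of PROX1 in Huh7, and of SEC23A and CSTB there, held under 11, 11 and 10 of 16 alternatives. Genes of protein export and of the furin family, which bring secreted precursors such as that of AMBP through the secretory route, were lower in 7 of 18 cases in Hep3B with none higher, and lower in 2 and higher in 1 in Huh7. Of the 18, 16 were above background, where 17.5% of named rows were called lower in Hep3B and 16.4% in Huh7. SSR1, a translocon-associated protein, fell by 0.91 in Hep3B and 0.55 in Huh7, SEC23A, a coat protein of export vesicles, by 0.61 and 0.37, and the cargo receptor LMAN1 by 0.54 in Hep3B. SSR3 rose in Huh7 by 0.49.

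The labelled liver origin was checked on markers. Of 14 measured hepatocyte markers, 13 or 14 were above background in each group. In Hep3B 5 of them fell and 3 rose, and in Huh7 11 fell and none rose. TTR belongs to this list and to the retinol list. Their mean level per array was 11.44 to 11.53 with siRNA and 11.70 to 11.76 in controls of Hep3B, and 10.90 to 11.27 with siRNA and 11.89 to 12.004 in controls of Huh7. Falls of AMBP and ITIH2 therefore came beside falls of other hepatocyte transcripts, and the part of that wider change in them was not tested. The 9 endothelial markers were all within background in every group, with array means from 3.49 to 3.61 and none called. Fibroblast markers above background numbered 0 of 8 in both Hep3B groups and 2 of 8 in both Huh7 groups, and blood markers 2 of 8 in every group. Cholangiocyte markers above background numbered 2 of 7 in both Hep3B groups, 3 with siRNA in Huh7 and 4 in Huh7 controls. The markers called with siRNA among 8 fibroblast, 8 blood and 7 cholangiocyte markers were named after their values were seen. They were PDGFRB in Hep3B (0.20, within background in both Hep3B groups), COL1A2 in Huh7 (-0.23), EPCAM in Huh7 (-0.42) and CD68 in both lines. CD68, a lysosomal protein, changed by 0.49 in Hep3B and by 1.14 in Huh7.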

How the data were processed

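The authors deposited log2 signals, 1 column for each of the 12 arrays, as the values show. Per the submitters' processing notes the authors used Agilent Feature Extraction 10.7.1.1, whereas the labels' protocols name Affymetrix labelling and the row names are Affymetrix transcript clusters. Probe summarisation, genome build and any normalization between arrays are not given in the sources used here. Of 70523 rows, the 67528 transcript clusters were kept and quantile normalized, because array medians differed by 0.12. Symbols came from the platform table (23781 of 25324 probes with 1 symbol, 1543 with several), and of several probes of a gene the one with the highest mean was kept. All 12 arrays entered a single linear model of 4 group means, leaving 8 residual degrees of freedom, in limma 3.58.1 (lmFit, eBayes with trend) in R 4.3.3. P-values are two-sided and Benjamini-Hochberg adjusted over 66212 rows. There were 4 comparisons: siRNA against control in each line, the difference of these effects, and control against control. No filter on dim rows was used. A row is above background if a group mean exceeds the highest background row. The procedure was tested on simulated data.

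Members and gene lists were chosen with earlier results of these data known. Named genes are all members, up to 4 called genes per related list with the largest siRNA change, and the 3 nearest genes per member. Listed genes without a row of their own symbol are not analysed here. The alternatives replaced the normalization (none, median centring, cyclic loess), the row set (dim rows removed, probes averaged) or the model (no trend, array weights, a replicate block, a fit to the compared groups alone), or left out 1 array at a time. Every probe as a row was added after seeing the data. The labels do not say that replicate numbers pair the arrays, so the main model has no pairing. Deviations of same-numbered arrays correlated at r from -0.22 to 0.17, over 0.1 in 3 of 6 pairs. In Hep3B r was 0.166, 0.099965 and 0.103, and in Huh7 -0.221, -0.135 and 0.139. Between siRNA and control arrays of different numbers r ran from -0.205 to 0.120 in Hep3B and from -0.119 to 0.278 in Huh7. Pairing was therefore not settled. The number of arrays limits the precision. Figures used Python 3.11.15 with matplotlib 3.10.9.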

Additional observations from a re-analysis of the deposited data

Results flagged for a closer look

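The siRNA effect on ITIH2 differed between the lines in a direct test, with a Huh7 change minus Hep3B change of -0.75 on the log2 scale (limma adjusted p = 0.0185). ITIH2 fell by 1.09 in Huh7 and by 0.34 in Hep3B. The adjusted p ran from 0.00587 to 0.0616 over 21 alternatives, with 16 of them under 0.05, and the difference stayed negative in all 21.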

How the results depend on the processing

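Of 345 recomputed values of the 5 members above background, 306 kept their direction and side of the threshold, 26 lost a call, 6 gained one and 7 changed sign, all 7 in values that were not called. The falls of AMBP in both lines, of ITIH2 in Huh7, and the Huh7 to Hep3B control differences of AHSG and ITIH2 were called under all 16 alternatives each. Members called in Hep3B numbered 4, but 1 after median centring, 2 with the replicate block, and 1 to 2 when 1 array was left out. For the difference of effects, where 1 member was called, the number was 0 after median centring, 0 with the replicate block (ITIH2 adjusted p = 0.0514), 2 with the mean of probes and 0 to 3 when 1 array was left out. With the replicate block, ITIH2 and AHSG in Hep3B had limma adjusted p = 0.0799 and 0.0682, and whether the numbers pair the arrays is not stated in the labels. Called rows in the difference numbered 1240, but 721 after median centring, 2300 among rows above background, and 614 to 1326 with 1 array left out. Called rows in Huh7 numbered 5327, but 2678 with only the 6 Huh7 arrays in the fit. AHSG in Huh7 (not called, near 0) was 0.071 with array weights and -0.15 to 0.15 with 1 array left out. Between controls, RBP4 ran from -0.018 to 0.049 and HRG from -0.034 to 0.24 with 1 array left out. The cause of these shifts was not tested, except that rows above background are fewer rows and that a left-out array or a fit to 6 arrays leaves fewer arrays. Members within background are limited by their signal.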
